A study of Mus musculus with 18 samples.

Results

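Cxcl1, Cxcl2 and Cxcl3 encode the neutrophil-attracting CXC chemokines of the mouse Cxcl1 to Cxcl3 group. They were taken from the deposited expression table by matching its Ensembl IDs to these 3 symbols in the GENCODE M21 annotation. All 3 were present, 3 of 11164 genes, and all 3 passed the filter on low values (a group mean of 1 RPKM or more in any group), which left 9934 genes for testing. Their levels were read as RPKM, the reads of a gene scaled to its length and to the reads of the whole library, so levels of different genes can be set beside each other. The deposited RPKM include 1 read added to each column's count, so low levels stand above what the reads printed beside them give.

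The cells were bone marrow macrophages labelled as strain C57BL/6J in every group, of WT, BAFF KO or APRIL KO genotype, with day 16 of gestation and preterm birth as the time point label of every sample. BAFF and APRIL belong to the TNF ligands and act on B-lineage cells, whose survival they promote. Cells were either left unstimulated (1 library per genotype) or treated for 4 h with lipopolysaccharide (LPS) at 10 ng/ml (2 libraries per genotype), a bacterial product that Toll-like receptor 4 recognises. The 18 deposited columns carry 9 library numbers, 13 to 21, with 2 columns each, and the columns of 1 number were averaged and counted as 1 library. The sources used here do not say how the knockout alleles were made, how many animals gave marrow or whether marrow was pooled. Nothing says that libraries came from separate animals, so the p-values speak of library-to-library spread alone, and this spread may be technical.

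Chemokines of this family carry a Glu-Leu-Arg stretch before their first cysteines and bind the receptor CXCR2 on neutrophils, which then leave the blood and migrate toward the source. In macrophages their genes are silent or low at rest and are switched on within hours of Toll-like receptor signalling through the transcription factor NF-kB. Their messages are short-lived because AU-rich stretches in the 3′ UTR recruit decay factors, so message levels depend on both transcription and stability.

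The genes lie on the plus strand of chromosome 5 in the mm10 (GRCm38) build, within 119.8 kb. Cxcl3 (ENSMUSG00000029379) spans chr5:90786103-90789600, Cxcl1 (ENSMUSG00000029380) chr5:90891241-90893115 and Cxcl2 (ENSMUSG00000058427) chr5:90903871-90905938, so Cxcl1 and Cxcl2 are 10.8 kb apart and Cxcl3 lies 101.6 kb before Cxcl1. The 90 bases before each gene's outermost annotated start are shown because the 3 genes were induced together and share 1 motif there. The sequences are of the RefSeq assembly GRCm38.p6, plus strand, 5′ to 3′, and capitals mark a 10-base NF-kB (kappaB) match common to all 3.
Cxcl1, chr5:90891151-90891240: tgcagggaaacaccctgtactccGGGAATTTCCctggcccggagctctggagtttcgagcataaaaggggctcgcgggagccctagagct
Cxcl2, chr5:90903781-90903870: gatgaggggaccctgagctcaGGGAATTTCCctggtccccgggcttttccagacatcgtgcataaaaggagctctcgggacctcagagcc
Cxcl3, chr5:90786011-90786100: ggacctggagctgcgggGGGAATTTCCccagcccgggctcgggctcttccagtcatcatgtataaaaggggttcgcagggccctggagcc

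The marked 10-mer starts at position -67 in Cxcl1, -69 in Cxcl2 and -73 in Cxcl3, counting -1 as the last base before the start. It is followed after 27, 30 and 34 bases by ATAAAAGG, which begins at -30, -29 and -29. In the 250 bases before each RefSeq gene start, searched on both strands, GGGAATTTCC was present in 28 of 27025 genes (0.104%) and ATAAAAGG in 1.83%. Both strings were chosen after the promoters were seen. The broader kappaB consensus, searched by its name, was present in 4.46% of genes and matched this site in all 3 members, on both strands with overlapping matches. It was absent from the windows of Ppbp, Pf4 and Cxcl15, other chemokine genes of the cluster. No window of Cxcl5, a further chemokine gene of the cluster, was searched. Of the remaining motifs searched, TATAAA (14.3% of genes) was found in Cxcl3 alone of the 3, the GC box GGGCGG (35.4%) and the C/EBP string TTNNGNAA (40.3%) in Cxcl2 alone, and the AP-1 string TGANTCA (7.82%) in none.

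For context, the other genes that hold the 10-mer were looked up in the same fit. Besides the 3 chemokines, 8 genes holding it were tested, and with LPS, averaged over genotypes, 1 rose and 6 fell, beside 18.1% of all genes higher and 62.1% lower. After median ratio scaling 1 rose and 3 fell, beside 30.8% and 30.3% of all genes. The riser was Nfkbia, the gene of the NF-kB inhibitor IkB alpha, at 2.96 on the log2(RPKM + 1) scale. In limma, 0 of these 8 genes passed between BAFF KO and WT under LPS, and 0 had an unadjusted p below 0.05. Of all 9934 genes, 828 passed and 2508 had an unadjusted p below 0.05, so so few genes allow no reading.

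The 3′ UTRs were searched for ATTTA, the core of AU-rich elements, in the longest annotated 3′ UTR of each gene. Cxcl1 had 7 copies in 592 bases, Cxcl2 11 in 1494 and Cxcl3 5 in 645, or 11.8, 7.36 and 7.75 per kb. Of 21025 genes, 0.747%, 2.81% and 2.42% were at least as dense. Of the other chemokine genes of the cluster, Pf4 had 1 copy in 123 bases (8.13 per kb), Cxcl5 5 in 1111 (4.50 per kb) and Ppbp 1 in 656 (1.52 per kb). The longer overlapping form ATTTATTTA occurred 2 times in Cxcl1, 4 times in Cxcl2 and 0 times in Cxcl3, and 6.15% of genes had it at all. Cxcl2 has 2 coding transcripts in the annotation, the longest of 1859 bases, while the deposited RPKM imply a length of 1050 bases.

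Libraries held 5121833 to 6020780 reads on listed genes. Macrophage markers were read in all 9 libraries (7 of 8 listed, 0 of them without reads in any library), summing to 4482 to 7565 RPKM. Reads of the APRIL gene Tnfsf13 numbered 0 in all 3 APRIL KO libraries and 119 to 486 in the other 6. The BAFF gene was not analysed here, which leaves the BAFF KO label without a check by its own gene.

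Unstimulated macrophages held little of these messages, and Cxcl2 was the most abundant of the 3 in each genotype. Cxcl2, also known as MIP-2, was at 21.77 RPKM in WT, 13.85 in BAFF KO and 17.42 in APRIL KO, from 127, 79 and 102 reads. Cxcl1, also known as KC, was at 2.60, 2.06 and 1.40 RPKM, from 11, 10 and 5 reads. Cxcl3 was at 1.09, 1.55 and 1.09 RPKM, from 4, 8 and 6 reads. Without the added reads Cxcl1 was at 2.11, 1.82 and 0.925 RPKM and Cxcl3 at 0.724, 1.38 and 1.05. With 1 library per genotype there was no replicate check at rest and no test was made. The 95% exact Poisson interval of the 4 Cxcl3 reads in WT runs from 1.09 to 10.2 reads and that of the 8 in BAFF KO from 3.45 to 15.8, so the intervals overlap. These intervals cover counting error only.

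LPS raised all 3 chemokines in all 3 genotypes. Cxcl2 reached 909.0 and 781.6 RPKM in the WT libraries 14 and 15, 333.4 and 368.0 in the BAFF KO libraries 17 and 18, and 918.6 and 693.4 in the APRIL KO libraries 20 and 21. The lowest LPS library was far above the highest unstimulated one. Over libraries, Cxcl2 went from 17.7 ± 3.96 RPKM (SD, n = 3 unstimulated) to 667 ± 259 (SD, n = 6 LPS), a ratio of 37.7.

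Cxcl1 reached 130.5 and 73.1 RPKM in WT, 109.3 and 101.7 in BAFF KO, and 103.9 and 63.0 in APRIL KO. Here the 3 genotypes overlapped, and the highest and the second lowest value both came from WT. Over libraries, Cxcl1 went from 2.02 ± 0.601 RPKM (SD, n = 3) to 96.9 ± 24.8 (SD, n = 6), a ratio of 47.9.

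Cxcl3 reached 90.8 and 89.9 RPKM in WT, 30.0 and 27.9 in BAFF KO, and 100.3 and 63.1 in APRIL KO. Both BAFF KO libraries were below each of the other 4, and how many of all genes show this pattern was not counted. Over libraries, Cxcl3 went from 1.25 ± 0.265 RPKM (SD, n = 3) to 67.0 ± 32.0 (SD, n = 6), a ratio of 53.8. The plot of levels by library shows the jump with LPS and the low BAFF KO values of Cxcl2 and Cxcl3.

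**Figure D1:**
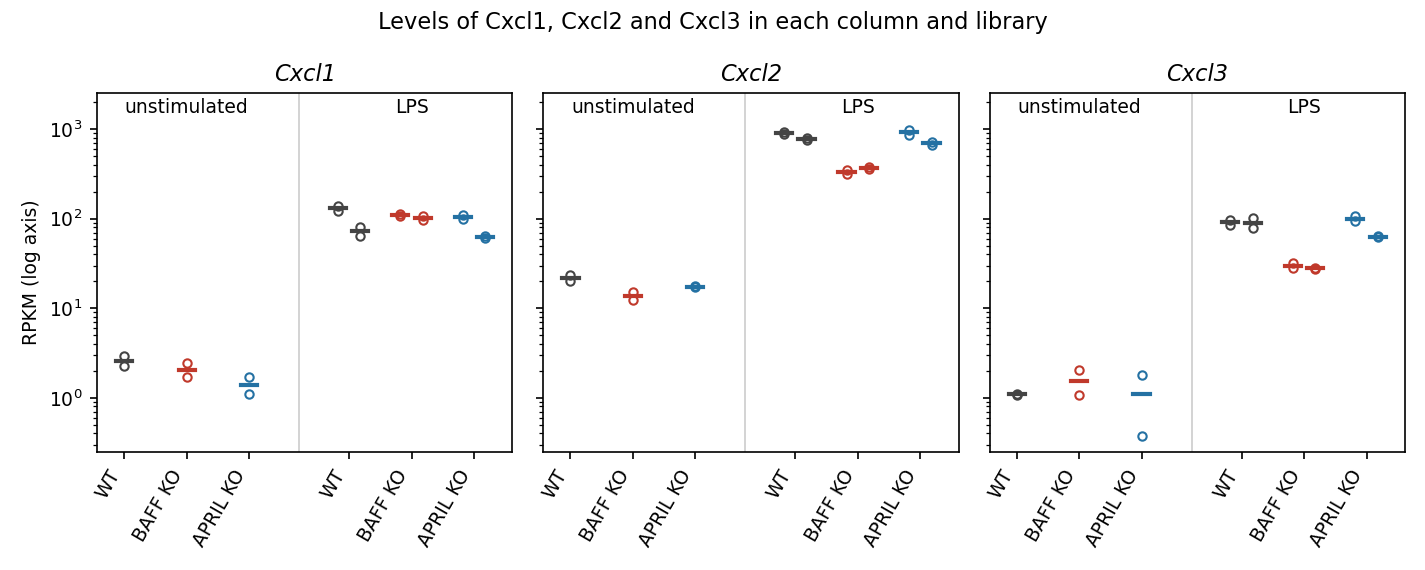
RPKM (log axis) of Cxcl1, Cxcl2 and Cxcl3 by genotype, unstimulated on the left and with LPS on the right of each panel. Open circles are the 2 columns of a library and bars their mean, the library's value. With LPS, Cxcl2 and Cxcl3 in both BAFF KO libraries lie below the WT and APRIL KO libraries, while Cxcl1 overlaps among genotypes.

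In limma on log2(RPKM + 1), a scale that understates the change of low genes, the change with LPS averaged over genotypes was 5.07 for Cxcl2 (Benjamini-Hochberg adjusted p = 6.3e-09), 5.0 for Cxcl1 (4.1e-07) and 4.76 for Cxcl3 (5.4e-08). All 3 members were called higher, where 18.1% of tested genes were higher and 62.1% lower (30.8% and 30.3% after median ratio scaling). By size they stood at numbers 30, 34 and 40 among the genes with a positive change. Each genotype had 1 unstimulated library, so the spread behind these p-values came from the LPS libraries alone. The median over all tested genes was -0.44 as deposited and -0.02 after median ratio scaling, under which Cxcl2 was at 5.57, Cxcl1 at 5.38 and Cxcl3 at 5.10. In bulk RNA, fewer cells making a chemokine and less of its message per cell cannot be told apart.

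Within genotypes the estimates of the 3 genes took a different order, which was not tested. In WT the estimate was largest for Cxcl3 (5.45 on the log2 scale, limma adjusted p = 1.7e-06), before Cxcl2 (5.21, 4.0e-07) and Cxcl1 (4.78, 3.4e-05). In BAFF KO it was largest for Cxcl1 (5.12, 2.2e-05), before Cxcl2 (4.56, 7.5e-07) and Cxcl3 (3.55, 1.7e-05). In APRIL KO the rises were 5.44 for Cxcl2 (3.2e-07), 5.27 for Cxcl3 (2.0e-06) and 5.09 for Cxcl1 (2.3e-05). The limma 95% intervals of the 3 genes overlapped in WT and in APRIL KO. In BAFF KO the interval of Cxcl3 (3.00 to 4.10) lay below that of Cxcl2 (4.16 to 4.97). The 3 members were thus called higher in each genotype, against 13.7% of genes in WT, 16.0% in BAFF KO and 14.4% in APRIL KO. As ratios of mean RPKM, Cxcl3 was 82.9 times its unstimulated level in WT, 74.7 times in APRIL KO and 18.7 times in BAFF KO. For Cxcl1 the same ratios were 39.1, 59.5 and 51.2, and for Cxcl2 38.8, 46.3 and 25.3, in the order WT, APRIL KO and BAFF KO. Without the added reads the ratios of Cxcl3 were 122.6, 76.6 and 20.4, those of Cxcl1 49.6, 91.2 and 57.0, and those of Cxcl2 38.0, 46.4 and 26.6. The order thus depended on the scale. In APRIL KO, Cxcl2 was highest on the log2 scale but lowest by ratio, and in WT it was also lowest by ratio. BAFF KO kept its order by ratio.

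Between genotypes under LPS, BAFF KO macrophages had less Cxcl2 and Cxcl3 message than WT, and Cxcl1 gave no call. Cxcl2 was at 351 ± 24.5 RPKM (SD, n = 2) in BAFF KO and 845 ± 90.1 (SD, n = 2) in WT, 2.41 times higher in WT. Cxcl3 was at 28.9 ± 1.51 RPKM (SD, n = 2) against 90.4 ± 0.597 (SD, n = 2), 3.12 times higher in WT. Cxcl1 was at 105.5 ± 5.31 RPKM (SD, n = 2) in BAFF KO and 101.8 ± 40.6 (SD, n = 2) in WT.

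The limma difference on the log2 scale was -1.26 for Cxcl2 (95% interval -1.59 to -0.93, adjusted p = 0.0030) and -1.61 for Cxcl3 (-2.06 to -1.16, adjusted p = 0.0040). The count is 2 of 3 members called lower in BAFF KO, beside 4.35% of tested genes (3.99% were called higher), and both differences were negative in 2 of 2 BAFF KO libraries. Both calls held under each of the 20 alternative settings, with values from -1.37 to -1.16 for Cxcl2 and -1.66 to -1.47 for Cxcl3. For Cxcl1 the difference was 0.11 with an interval of -0.57 to 0.79 (limma adjusted p = 0.857). That interval does not reach the values of Cxcl2 or Cxcl3, but the difference between the genes was not tested. Without WT library 15 the Cxcl1 value was -0.31, and without WT library 14 it was 0.52, both uncalled.

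APRIL KO macrophages gave no call for any of the 3 chemokines against WT under LPS, a comparison in which 0.211% of genes were called. The differences were -0.27 for Cxcl1 (95% interval -0.95 to 0.41), -0.08 for Cxcl2 (-0.41 to 0.25) and -0.18 for Cxcl3 (-0.63 to 0.27), with limma adjusted p of 0.690, 0.826 and 0.686, and 0 of 3 had an unadjusted p below 0.05. The APRIL KO means were 83.4 ± 28.9 RPKM for Cxcl1, 806 ± 159 for Cxcl2 and 81.7 ± 26.3 for Cxcl3 (SD, n = 2). Library 20 was higher than library 21 for each of the 3 genes.

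Set against APRIL KO in place of WT, BAFF KO was lower again for Cxcl2 (-1.19, 95% interval -1.52 to -0.86, limma adjusted p = 0.0048) and Cxcl3 (-1.43, -1.88 to -0.98, adjusted p = 0.0077). This comparison uses the same BAFF KO libraries, so it is no independent repeat, and 3.06% of genes were called lower in it. Cxcl1 stood at 0.38 (-0.30 to 1.06, adjusted p = 0.55). Without BAFF KO library 17 neither call passed, at -1.11 (adjusted p = 0.059) for Cxcl2 and -1.48 (adjusted p = 0.067) for Cxcl3. Cxcl3 also lost its call without library 18, at -1.38 (adjusted p = 0.068).

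The test of the difference in LPS response itself rests on 1 unstimulated library per genotype. For BAFF KO minus WT, limma gave -1.90 for Cxcl3 (95% interval -2.68 to -1.12, adjusted p = 0.065), -0.65 for Cxcl2 (-1.22 to -0.08, adjusted p = 0.19) and 0.34 for Cxcl1 (-0.83 to 1.52, adjusted p = 0.73), so 0 of 3 members passed where 0.443% of genes did. Unadjusted, limma p was 0.00056 for Cxcl3 and 0.031 for Cxcl2, in a comparison where 2141 of 9934 genes had an unadjusted p below 0.05. The Cxcl3 result passed when either APRIL KO LPS library was left out, which leaves its value at -1.90 and changes only the shared estimate of the spread (adjusted p = 0.030 without library 20 and 0.029 without library 21). For APRIL KO the same estimates were 0.32, 0.23 and -0.18 for Cxcl1, Cxcl2 and Cxcl3 (adjusted p = 0.998 each), in a limma comparison where 0.0% of genes were called and 337 had an unadjusted p below 0.05.

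**Figure D2:**
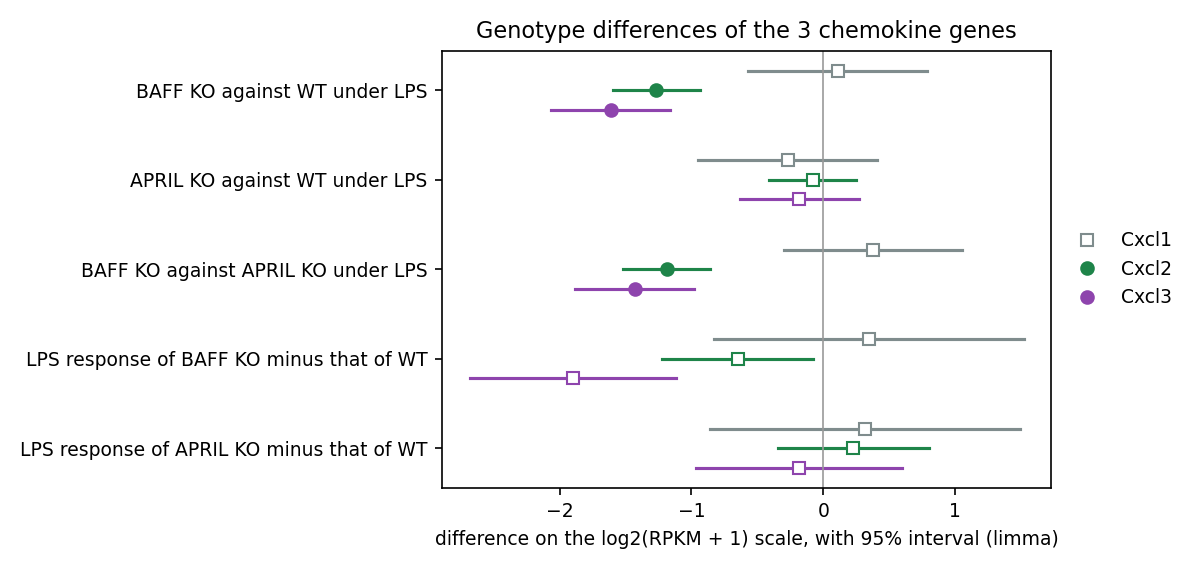
Differences between genotypes on the log2(RPKM + 1) scale for the 3 chemokine genes, with 95% intervals from limma, for 3 comparisons under LPS and 2 differences of LPS response. Filled circles passed the adjusted threshold of 0.05 and open squares did not. Cxcl2 and Cxcl3 were lower in BAFF KO than in WT or APRIL KO, and each Cxcl1 interval crosses 0.

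The make-up of the chemokine message followed from these unequal differences and is given as a description. Of the summed RPKM of the 3 genes, Cxcl2 made up 80.4% and 82.7% in the WT LPS libraries, 81.8% and 84.6% in APRIL KO, and 70.5% and 74.0% in BAFF KO. Cxcl1 made up 23.1% and 20.4% in BAFF KO with LPS against 7.69% to 11.5% in the other 4 LPS libraries. The share of Cxcl3 was 6.35% and 5.6% in BAFF KO and 7.70% to 9.52% in the others.

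The ratio of Cxcl2 to Cxcl1 was 3.05 and 3.62 in the BAFF KO LPS libraries and 6.97 to 11 in the other LPS libraries. Unstimulated, the Cxcl2 share was 85.5% in WT, 79.3% in BAFF KO and 87.5% in APRIL KO. The summed level of the 3 messages under LPS was 473 and 498 RPKM in BAFF KO, 1130 and 945 in WT, and 1123 and 819 in APRIL KO.

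**Figure D3:**
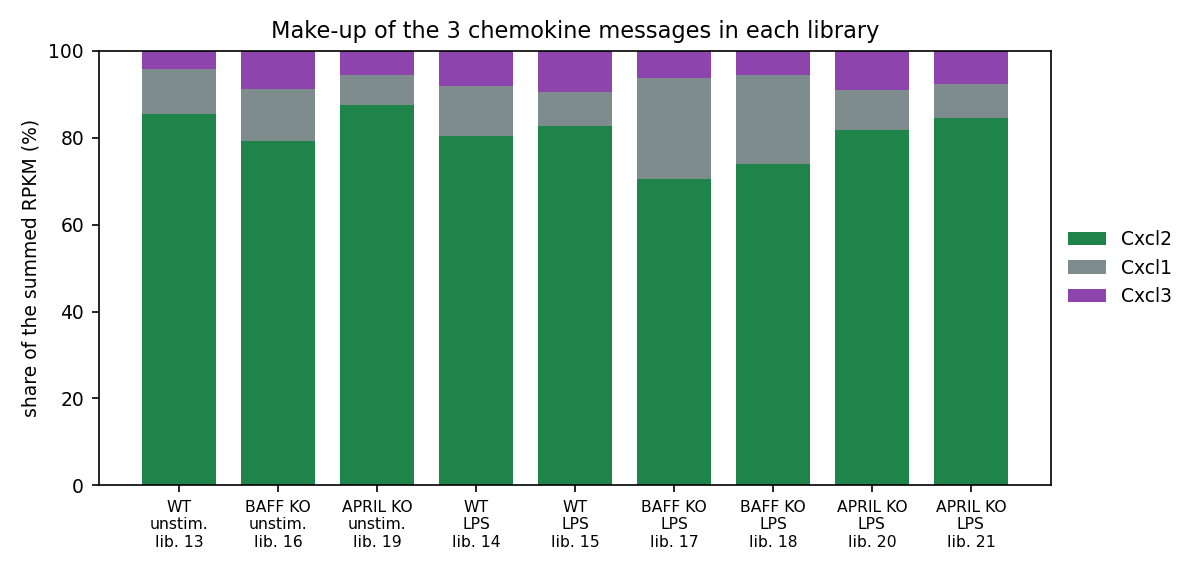
Share (%) of Cxcl2, Cxcl1 and Cxcl3 in their summed RPKM, 1 stacked bar for each of the 9 libraries. The Cxcl1 band is widest in the 2 BAFF KO LPS libraries, at 23.1% and 20.4%.

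Across all 9 libraries the log2 levels of the 3 genes ran together, with Pearson r of 0.97 for Cxcl1 and Cxcl2, 0.95 for Cxcl1 and Cxcl3 and 0.99 for Cxcl2 and Cxcl3, a pattern set by the step between unstimulated and LPS libraries. Within the 6 LPS libraries r was 0.99 for Cxcl2 and Cxcl3, -0.12 for Cxcl1 and Cxcl2 and -0.12 for Cxcl1 and Cxcl3. These are descriptions over libraries that share genotype groups and carry no test.

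Cxcl2 and Cxcl3 are the closest pair in sequence. Their coding sequences were identical at 91.4% of aligned bases, against 80.5% for Cxcl1 and Cxcl2 and 75.6% for Cxcl1 and Cxcl3. The longest stretch common to the Cxcl2 and Cxcl3 transcripts was 110 bases, so 26 windows of the 85-base read length occur in both, and reads of those windows are uncertain between them. Cxcl1 shared 0 such windows with either, with a longest common stretch of 23 bases. If every Cxcl2 read from a shared window had been counted as Cxcl3, with Cxcl2 reads spread evenly over its length, the WT to BAFF KO ratio of depth-scaled Cxcl3 reads under LPS would be 3.54 in place of 3.15. By the same bound, unstimulated Cxcl3 could owe to Cxcl2 3.42 of its 4 reads in WT, 2.13 of 8 in BAFF KO and 2.75 of 6 in APRIL KO. This limits the unstimulated Cxcl3 levels, the Cxcl3 ratios to them and the Cxcl3 difference in response.

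Of the other ligands of the receptor and their cluster partners, Cxcl5, Ppbp and Pf4 were tested. In limma, 0 of 3 passed with LPS averaged over genotypes (0 with an unadjusted p below 0.05) and 0 of 3 in BAFF KO or APRIL KO against WT under LPS (1 and 0 with an unadjusted p below 0.05). Of all 9934 genes, 7968, 828 and 21 passed these 3 comparisons. An unadjusted p below 0.05 was found for 8092, 2508 and 1539. Pf4, the gene of platelet factor 4, was abundant without stimulation at 365.7 to 544.7 RPKM and stood at 346.5 to 470.7 with LPS. Its LPS change of -0.09 turned with the scaling, to 0.42 (limma adjusted p = 0.0031) after median ratio scaling and -0.24 (adjusted p = 0.011) after quantile normalization. Within BAFF KO alone Pf4 fell by 0.51 (limma adjusted p = 0.011), a call that was lost after median ratio scaling. Ppbp, the gene of pro-platelet basic protein, ranged from 5.14 to 14.7 RPKM over all libraries.

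Cxcl5, another neutrophil chemokine gene, was at 10.3 RPKM in WT LPS library 14 (86 reads) and at 0.464 (3 reads) in WT LPS library 15. In the other 7 libraries it stood between 0.556 and 2.09 RPKM. Of the receptors, Cxcr2 was listed at 0 to 7 reads per library, under the filter, and was at 0 reads in 3 LPS libraries.

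Of the 8 other genes of the table within 1 Mb of the members, 6 were tested. Ankrd17, an ankyrin repeat protein gene, rose by 1.14 and Cox18, a mitochondrial assembly factor gene, by 0.80, while Afp, the alpha-fetoprotein gene, fell by 0.89 on the log2 scale (limma adjusted p = 7.5e-06, 0.00017 and 0.0016). The fall of Afp was not called after quantile normalization. In limma, 0 of the 6 passed between BAFF KO and WT under LPS, and 2 had an unadjusted p below 0.05. Of all 9934 genes, 828 passed there and 2508 had an unadjusted p below 0.05. The starts of Pf4, Ppbp and Cxcl5 lie at -13.7, -17.6 and -26.7 kb from that of Cxcl3.

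**Figure D4:**
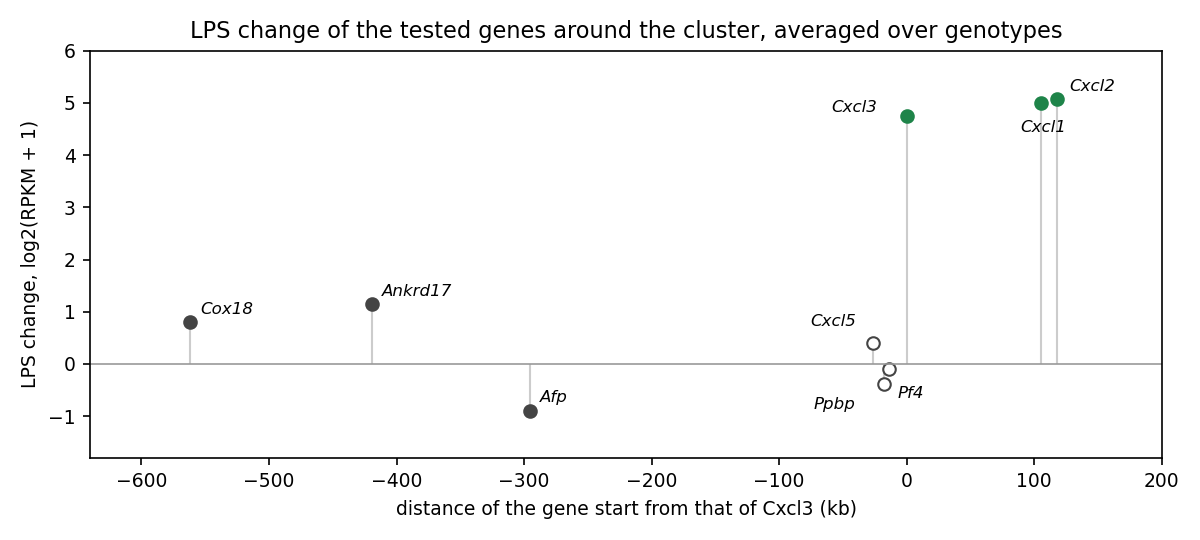
Change with LPS averaged over genotypes, log2(RPKM + 1), of the 9 tested genes around the cluster, against the distance (kb) of each gene's start from that of Cxcl3. Green points are Cxcl1, Cxcl2 and Cxcl3, filled points passed the limma threshold and open points did not. The 3 members stand between 4.76 and 5.07, and Pf4, Ppbp and Cxcl5 between -0.38 and 0.41.

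Genes of the path from LPS to these promoters were counted as lists. Of 18 tested genes of upstream LPS sensing, 9 rose and 5 fell with LPS (10 and 3 after median ratio scaling). Of all genes 18.1% rose and 62.1% fell (30.8% and 30.3% after that scaling). The median of the list was 0.46 beside -0.44 over all genes. The largest rises were those of Tnfaip3, the NF-kB feedback inhibitor A20 (3.93), Myd88, the adaptor of Toll-like receptors (2.02), and the inhibitory kinase gene Irak3 (1.74). Irak4 (-1.12), Tab1 (-1.10) and Irak1 (-1.01), kinase and adaptor genes of the same path, fell.

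In BAFF KO against WT under LPS, 4 of these 18 were lower and 0 higher, beside 4.35% and 3.99% of all genes. The median was -0.07 beside 0.02 over all genes. They were Cd14, the LPS co-receptor (-0.90), Tnip1, a partner of A20 (-0.70), the kinase gene Map3k8 (-0.59) and Myd88 (-0.33), at limma adjusted p of 0.0087, 0.0043, 0.038 and 0.046. Tnip1 kept its call under each alternative. Cd14 lost its call without library 17 or 18, and Map3k8 and Myd88 without any 1 of the 6 LPS libraries.

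Of 19 tested genes of NF-kB and its partners at chemokine promoters, 12 rose and 6 fell with LPS, with a median of 1.09. After median ratio scaling 14 rose and 3 fell. The shares of all genes were 18.1% and 62.1% (30.8% and 30.3% after that scaling). Nfkbiz, a co-activator of secondary NF-kB targets, rose by 3.55, the inhibitor gene Nfkbie by 3.03 and Nfkbia by 2.96, while Fos (-2.63), Parp1 (-1.95) and Cux1 (-0.97) fell. In BAFF KO against WT, 3 were higher and 4 lower, beside 3.99% and 4.35% of all genes, and the median was -0.03. The lower ones were Cebpd, a C/EBP family factor (-1.91), Fos of the AP-1 family (-1.07), Bcl3, an IkB family co-factor (-0.69), and Nfkb2, the p100 subunit gene (-0.36). The higher ones were the kinase subunit genes Ikbkg (0.61) and Ikbkb (0.55) and the p65 subunit gene Rela (0.41). Their limma adjusted p lay between 0.014 and 0.046. None of these 7 calls held under all alternatives. Each was lost without WT library 15, and all but those of Cebpd and Fos also without library 18. The call counts of this list ran from 0 to 4 higher and 0 to 7 lower over the 20 settings.

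Among 17 genes that control AU-rich messages, 5 rose and 8 fell with LPS (median -0.11), beside 18.1% and 62.1% of all genes. After median ratio scaling 9 rose and 5 fell, beside 30.8% and 30.3% of all genes. The largest rises were those of Mapkapk2, the kinase that restrains decay of such messages (2.40), Arid5a, an RNA-stabilising protein gene (2.19), and Zc3h12a, the gene of the RNase Regnase-1 (1.44). Zfp36l2 (-2.03), Khsrp (-0.92) and Tia1 (-0.88), genes of RNA-binding proteins, fell. In BAFF KO against WT, Dusp1, a phosphatase gene of MAP kinases, was lower (-0.88, limma adjusted p = 0.0072), as was Zc3h12a (-0.52, adjusted p = 0.045), and the median was -0.0014. Of all genes, 4.35% were called lower in this comparison. Dusp1 lost its call without library 17 and Zc3h12a without any 1 of the 6 LPS libraries. Both also lost their calls with the lower index column alone. Zc3h12a further lost its call with no filter, quantile normalization or the replicate block.

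Of 15 tested neutrophil growth and recruitment signals of macrophages, 12 rose and 3 fell with LPS, with a median of 2.71. The shares of all genes were 18.1% and 62.1%. Il6 (7.43), Il1a (7.30) and Il1b (6.90), cytokine genes, rose most, and S100a9 (-1.06) and S100a8 (-0.89), calprotectin genes, and the complement receptor gene C5ar1 (-0.65) fell. The fall of C5ar1 was not called after median ratio scaling or quantile normalization. In BAFF KO against WT under LPS 4 were lower and 2 higher, beside 4.35% and 3.99% of all genes, and the median was -0.0047. The lower ones were Il1b (-2.69), Il1a (-1.78), the granulocyte growth factor gene Csf3 (-1.19) and the chemokine gene Ccl4 (-0.80), and the higher ones S100a9 (0.78) and Icam1, an adhesion molecule gene (0.34), at limma adjusted p from 2.4e-05 to 0.030. Il1b, Il1a and Ccl4 kept their calls under each alternative. S100a8 and S100a9 are counted among the neutrophil markers too, which were higher in BAFF KO under LPS for 7 of 10 genes, beside 3.99% of all genes.

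Csf3 rests on few reads, 18 and 24 in the WT LPS libraries and 3 and 8 in BAFF KO. It lost its call without library 15, 17 or 18, and with the lower index column alone. Icam1 lost its call without any 1 of the 6 LPS libraries, and S100a9 without library 14 or 17. In APRIL KO against WT under LPS, 0 of the 69 tested genes of these 4 lists passed the limma test and 11 had an unadjusted p below 0.05. Of all 9934 genes, 21 passed and 1539 had an unadjusted p below 0.05.

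The genes most like the chemokines were ranked by Pearson r with the mean centred log2 level of the 3, leaving out the members. Over all 9 libraries and 9858 genes the highest were Tnfsf9, the gene of the 4-1BB ligand, Nfkb2, the histone gene H3f3b, Srgn, a proteoglycan gene, and Myd88, at r of 0.997 to 0.998. Tnfsf9 went from 0.816 to 1.12 RPKM without stimulation to 39.0 and 31.2 in WT, 17.4 and 16.6 in BAFF KO, and 34.9 and 26.2 in APRIL KO with LPS. It was chosen for its likeness over these libraries, so its low BAFF KO values restate that choice.

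Over the 6 LPS libraries and the 827 genes with a log2 range of at least 1, the highest were Tnfsf9 (r of 0.99), Flrt3 (0.99), Gadd45a (0.98), Havcr2 (0.97) and Serpinb6b (0.96). Flrt3 was low, at 0.125 to 1.47 RPKM in these libraries. Gadd45a, a stress-induced gene, was at 8.47 and 8.61 RPKM in BAFF KO against 11.1 to 18.2 in the other LPS libraries, but was higher unstimulated, at 31.2 to 46.6. These 5 genes were chosen for their likeness over these libraries, so their low BAFF KO values under LPS restate that choice. Cxcl1 had r of -0.12 with Cxcl2 and with Cxcl3 here, so the mean level does not stand for all 3 alike. These are descriptions over few libraries.

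Markers of other cells moved with LPS and between genotypes. With LPS averaged over genotypes, 10 of 10 tested neutrophil markers were lower, beside 62.1% of all genes. Their median was -0.96 beside -0.44 over all genes. After median ratio scaling 7 were lower and 1 higher, beside 30.3% and 30.8% of all genes. Their summed level without stimulation was 3096 RPKM in WT, 5811 in BAFF KO and 2750 in APRIL KO. Neutrophil markers were higher in BAFF KO than in WT under LPS for 7 of 10 tested genes and lower for 0. Of all genes 3.99% were higher and 4.35% lower in this comparison. Of the 12 markers, 11 were in the table. Their summed level was 2712 and 2332 RPKM in BAFF KO, 1350 and 1709 in WT and 1598 and 1633 in APRIL KO with LPS, and Cxcr2 alone of them was at 0 reads in any library. Over the alternatives the count of higher genes ran from 2 to 8, with 4 without WT library 14 and 3 without BAFF KO library 17 or 18.

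Skeletal muscle markers were lower in BAFF KO than in WT under LPS for 10 of 11 tested genes, beside 4.35% of all genes. In APRIL KO against WT 5 of 11 were lower, where 0.211% of all genes were called. Unadjusted, 11 of 11 had a limma p below 0.05 in both comparisons, with medians of -2.40 and -2.53. Between BAFF KO and APRIL KO 0 of 11 passed. Their summed level with LPS was 39.4 and 51.7 RPKM in BAFF KO, 27.0 and 61.3 in APRIL KO and 363 and 245 in WT. Without stimulation it was 247 in WT, 23.8 in BAFF KO and 38.0 in APRIL KO. Ckm was at 0 reads in both BAFF KO LPS libraries. Over the alternatives the count of lower genes ran from 4 to 11 in BAFF KO and from 0 to 11 in APRIL KO. In BAFF KO it was 6 without WT library 14, 4 without BAFF KO library 17 and 5 without library 18. In APRIL KO it was 0 without any 1 of libraries 14, 17, 18 and 20. The part of these cells in the results on the chemokines was not tested.

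Stromal and fibroblast cells also make these chemokines, and 7 of 8 of their markers were listed. They summed to 225 and 53.9 RPKM in WT, 9.65 and 44.7 in BAFF KO and 15.1 and 434 in APRIL KO with LPS, and in limma 0 of 5 tested markers passed between BAFF KO and WT, while 2 had an unadjusted p below 0.05 and the median difference was -2.15. Of all 9934 genes, 828 passed in this comparison and 2508 had an unadjusted p below 0.05. Pdgfra was at 0 reads in the LPS libraries 15 and 20 and in the unstimulated libraries 16 and 19. The part of stromal cells in the result was not tested. Endothelial markers summed to 11.7 to 22.2 RPKM in the LPS libraries. B cell markers (4 of 4 in the table) summed to 11.2 and 16.8 RPKM in BAFF KO with LPS and 23.2 to 29.4 in the other LPS libraries, mast cell markers (3 of 3) to 33.1 to 51.4 in the LPS libraries, and T and NK cell markers were 0 of 3 in the table.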

How the data were processed

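RNA was sequenced as single reads of 85 bp (per the labels' protocols), and the submitters' processing notes name STAR and mm10. The sources used here give neither the counter, the annotation and any gene filter nor whether strand was kept. The authors deposited RPKM values for 11164 genes in 18 columns, 2 per library number. Reads were recovered from the deposited RPKM: 100% of values came out whole within 0.01 reads, with 1 read added to each count, and a count of 0 is listed at a floor worth 1 read at a depth of 2636926 reads. Columns held 1649338 to 4078562 reads.

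The columns of a library were averaged. Genes whose mean reached 1 RPKM in any of the 6 groups were fitted as log2(RPKM + 1) with limma 3.58.1 in R 4.3.3: 6 group means, 3 residual degrees of freedom, moderated with a trend, 2-sided, Benjamini-Hochberg adjustment over all 9934 genes and a threshold of 0.05, for 9 comparisons. The script was tested on simulated data. RPKM are not counts, so no count test was used. Symbols came from GENCODE M21 (11084 IDs matched).

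Named genes are the members, up to 3 rises and 3 falls per list (a 4th where a direction had 4 calls, named after its value was seen), and the 5 genes most like the members by correlation. The members and lists were chosen with earlier results of these data known. Alternatives covered the pseudocount, filter, scaling, columns, a replicate block and leaving out each library. RPKM rebuilt without the added read, from each column or from the summed reads of both, were alternatives chosen after seeing the data.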

Additional observations from a re-analysis of the deposited data

How the results depend on the processing

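The rises with LPS and the lower Cxcl2 and Cxcl3 of BAFF KO against WT kept direction and call under every alternative run. For these 3 genes, changes of sign were limited to differences that were not called. In the gene and marker lists, the called falls with LPS averaged over genotypes of Chuk, Ikbkg, Map3k7, Mapkapk3 and Camp turned to positive values after median ratio scaling. For Cxcl1, BAFF KO against WT was -0.064 and the difference in response -0.13 with the higher index column alone. For APRIL KO, Cxcl2 against WT was 0.026 after quantile normalization and the Cxcl3 difference in response 0.42 with the lower index column alone. With that column, Cxcl3 in BAFF KO against APRIL KO was -1.41 and no longer called (limma adjusted p = 0.057). The difference in response of BAFF KO against WT became a call for Cxcl3 with a pseudocount of 0.1 (-2.11, limma adjusted p = 0.0495) and, with the 18 columns as separate samples, for Cxcl3 (-1.87, 0.0012) and Cxcl2 (-0.65, 0.017). The last setting counts the 2 columns of 1 library as separate replicates, so its p-values are too small. It called 2193 genes in this comparison, beside 44 in the main fit.

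Leaving out 1 library gave, for Cxcl1, -0.31 to 0.52 (BAFF KO against WT), -0.68 to 0.15 (APRIL KO against WT), -0.069 to 0.76 (response, BAFF KO) and -0.10 to 0.73 (response, APRIL KO). For Cxcl2 it gave -0.28 to 0.12 (APRIL KO against WT) and -1.39 to -0.98 (BAFF KO against APRIL KO). For Cxcl3 it gave -0.51 to 0.15 (APRIL KO against WT), -1.76 to -1.10 (BAFF KO against APRIL KO), -1.95 to -1.85 (response, BAFF KO) and -0.51 to 0.15 (response, APRIL KO). The change averaged over genotypes could not be fitted without a genotype's only unstimulated library.

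Replicate numbers were not shown to pair the libraries (correlation of deviations -0.18, -0.10 and 0.12 between genotypes). With the replicate block, Cxcl2 was at -1.26 and Cxcl3 at -1.61 in BAFF KO against WT (limma adjusted p = 0.0054 and 0.0051), and no call of the 3 genes changed. Cxcl1 and Cxcl3 at rest rest on 4 to 11 reads per library, which limits their fold changes and differences in response.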
